A study of Mus musculus with 2 samples.

Results

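The cytosolic ribosomal protein genes were read in total RNA of 2 hearts from female B6CASTF1/J mice, an F1 hybrid strain, taken 4 days after birth. They were taken as every gene that has a transcript typed protein_coding and a symbol of the form Rpl or Rps followed by a number, or Rpsa or Rplp with a number, leaving out the ribosomal S6 kinases and symbols marked as pseudogenes. The rule found 86 genes among 55536 annotated ones. They comprised 77 core ribosomal proteins (46 of the large subunit and 31 of the small), 8 paralogs of core genes and Rps19bp1, which encodes a protein that binds Rps19 and is itself no ribosomal protein. Both libraries belonged to 1 group, with no treatment, mutation or second tissue, so levels are described across genes and the only contrast is replicate 1 over replicate 2. The labels number the hearts as separate biological replicates but give both the same donor, so the spread between them may be smaller than that between unrelated animals.

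The cytosolic ribosome is built from a small subunit, which reads the mRNA, and a large subunit, which joins amino acids, and nearly every core protein is present in a single copy per ribosome. Most core genes are read in every cell, and their mRNAs begin with a run of pyrimidines, the TOP motif, through which mTOR signalling controls their translation. Mammalian genomes also hold a few paralogs with restricted use: Rpl3l in heart and skeletal muscle, Rpl10l and Rpl39l in the testis. They hold many intronless copies of ribosomal protein mRNAs besides, most of them classed as pseudogenes.

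The libraries held 36175363 expected counts in replicate 1 and 32509660 in replicate 2, and a count of 0 allows a level of up to 0.0829 CPM (counts scaled to a common library total) in replicate 1 and 0.0923 CPM in replicate 2. Such limits, and the intervals given for single ratios, cover counting error only. Levels are given as TPM, transcript abundances corrected for length and scaled to a common total. Heart muscle markers carried the tissue label, with Myh6, the alpha myosin heavy chain, at 7039 TPM in replicate 1 and 6860 TPM in replicate 2. The 5 heart muscle markers summed to 26842 and 26523 TPM. The hearts differed in blood and in skeletal muscle transcripts: 4 erythroid markers summed to 11388 TPM in replicate 1 and 141 TPM in replicate 2, and 6 skeletal muscle markers to 31.8 and 2.87 TPM. The 4 macrophage markers summed to 22.9 and 34.7 TPM, and Nppa, an atrial peptide hormone, had 866 and 718 TPM. The 4 markers of cycling cells summed to 254 TPM in replicate 1 and 294 TPM in replicate 2. The 4 markers of testis and germ cells summed to 0.13 and 0.05 TPM, with Prm1, Prm2 and Tnp1 at 0. In whole tissue, fewer cells of a type and less RNA per cell cannot be told apart.

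The 3 Rps27-type genes show why some members can be told apart in these data and others cannot, so the coding sequences of 2 of them are given first, from GENCODE M21. Rps27 lies on chromosome 3 (mm10, 90212522 to 90213651, minus strand) and Rps27l on chromosome 9 (66946086 to 66949516, plus strand). Capitals mark the bases of the paralog that differ from the parent gene.
Rps27l: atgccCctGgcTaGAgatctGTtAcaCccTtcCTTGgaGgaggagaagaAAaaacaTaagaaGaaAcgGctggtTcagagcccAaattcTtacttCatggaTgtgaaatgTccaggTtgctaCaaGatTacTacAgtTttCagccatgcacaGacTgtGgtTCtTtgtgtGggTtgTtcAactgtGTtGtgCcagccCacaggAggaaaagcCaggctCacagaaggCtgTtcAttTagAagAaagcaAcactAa
Rps27: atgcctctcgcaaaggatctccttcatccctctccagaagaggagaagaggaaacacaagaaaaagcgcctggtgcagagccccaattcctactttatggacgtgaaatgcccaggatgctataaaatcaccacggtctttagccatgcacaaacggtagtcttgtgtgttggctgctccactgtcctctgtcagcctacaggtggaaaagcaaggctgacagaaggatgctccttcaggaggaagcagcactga
Rps27l differed from Rps27 at 61 of 255 coding bases, an identity of 76.1%. Rps27rt (chromosome 9, 114982366 to 114982739, minus strand) has 1 exon, and its coding sequence was identical to that of Rps27 at all 255 bases, so a read inside the coding part cannot be assigned to either by its sequence. The same comparison for the pair Rpl39l on chromosome 16 and Rpl39 on chromosome X found 23 differing bases of 156, an identity of 85.3%.
Rpl39l: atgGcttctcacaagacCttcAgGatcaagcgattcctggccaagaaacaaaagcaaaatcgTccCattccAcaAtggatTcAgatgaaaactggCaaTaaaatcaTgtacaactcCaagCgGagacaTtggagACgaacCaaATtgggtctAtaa
Rpl39: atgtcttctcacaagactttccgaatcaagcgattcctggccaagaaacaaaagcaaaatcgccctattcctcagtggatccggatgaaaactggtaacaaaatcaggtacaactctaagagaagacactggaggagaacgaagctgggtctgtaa
Rpl41, on chromosome 10, has the shortest coding sequence of the core genes, at 78 bases, and it was also the member with the highest level.
Rpl41: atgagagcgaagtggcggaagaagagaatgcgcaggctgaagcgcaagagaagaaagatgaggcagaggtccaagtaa

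Promoter windows from RefSeq (build GRCm38.p6, 250 bases before the annotated start and 50 from it) were matched for 66 of the 86 members, 57 of them core genes. For 26 of the 66, the start lay within 10 bases of the start of the leading GENCODE transcript. The stretch of 50 bases before the start and 20 bases from it is shown for members whose levels are compared below, with the longest run of C and T near the start in capitals.
Rps27l (chr9:66946036-66946105, plus strand): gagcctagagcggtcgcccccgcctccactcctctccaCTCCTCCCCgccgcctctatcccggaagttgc
Rps27 (chr3:90213629-90213698, minus strand): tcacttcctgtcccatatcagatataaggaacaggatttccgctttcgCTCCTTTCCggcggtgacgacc
Rps6 (chr4:86857348-86857417, minus strand): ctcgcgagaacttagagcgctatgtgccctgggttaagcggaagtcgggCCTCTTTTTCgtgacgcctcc
Rpl22l1 (chr3:28805458-28805527, plus strand): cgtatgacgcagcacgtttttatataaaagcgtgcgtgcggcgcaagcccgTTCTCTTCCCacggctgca
Rpl41 (chr10:128549149-128549218, minus strand): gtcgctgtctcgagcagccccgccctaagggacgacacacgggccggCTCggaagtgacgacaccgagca
Rpl3l (chr17:24727776-24727845, plus strand): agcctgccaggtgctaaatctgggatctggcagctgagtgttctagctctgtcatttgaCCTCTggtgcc
The run near the start had 9 bases in Rps27l, 9 in Rps27, 10 in Rps6 and 10 in Rpl22l1. In Rps27l the run began 12 bases before the annotated start and ended before it, so it lay outside the annotated mRNA. In Rps27 and Rps6 the run spanned the start, beginning 2 bases and 1 base before it. In Rpl22l1 it began at base 2 from the start. The run had 3 bases in Rpl41 and 5 in Rpl3l, the muscle paralog, and in windows not printed 4 in Rpl22 and 4 in Rpl9. The start used lay 45 bases from the GENCODE start for Rps6, 39 for Rpl22l1 and 127 for Rpl22.

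Over the 57 core windows, 31 (54.4%) held a run of 6 or more pyrimidines that touched the 10 bases on either side of the start, against 28.2% of 12036 windows of expressed protein-coding genes and 29.2% of all 32851 windows. A C followed by 5 pyrimidines, which can be part of the same run, between 5 bases before the start and 10 bases from it, was present in 40.4% of core windows, 9.55% of expressed windows and 9.40% of all windows. Motifs were searched on both strands of the 300 bases. CCGGAA, the core bound by ETS family factors, was found in 50.9% of core windows, against 27.2% of expressed and 14.9% of all windows. The palindrome TCGCGA was found in 14 core windows (24.6%), those of Rps6, Rps19 and Rpl12 among them, against 4.94% of expressed windows and 821 of all 32851. ATGGCG, the core bound by YY1, was in 26.3% of core windows, against 15.0% and 8.93%. GGGCGG, the GC box bound by Sp1, was in 59.6% of core windows, close to the 63.5% of expressed windows and above the 35.7% of all windows. TATAAA was in 8.77% of core windows, 6.91% of expressed windows and 13.6% of all windows. The median GC content was 57.7% in core windows, 61.0% in expressed windows and 52.7% in all, and these shares are descriptions with no test.

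**Figure D1:**
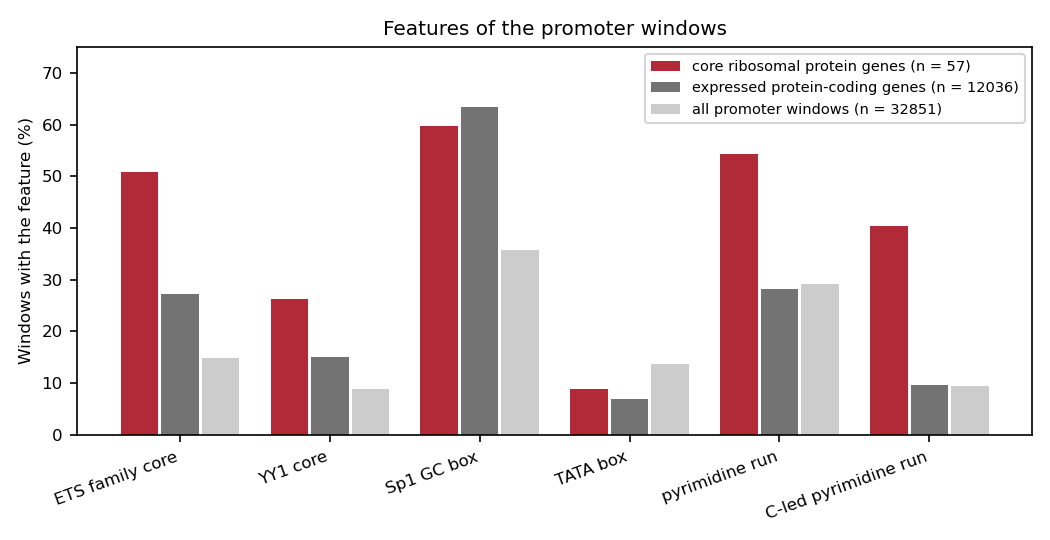
Share of promoter windows (percent, axis from 0) that held each sequence feature, for 57 core ribosomal protein genes, 12036 windows of expressed protein-coding genes and all 32851 windows. The pyrimidine runs stand at 54.4% and 40.4% in core windows, while the GC box share is close to that of expressed genes.

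Nearly all members were read in these hearts. Of the 86, 84 (97.7%) reached 1 TPM in both libraries, against 54.2% of protein-coding genes, and the same 84 reached 5 TPM. The members summed to 26802 TPM in replicate 1 and 26984 TPM in replicate 2, which is 2.69% ± 0.0129 of all TPM (SD, n = 2) and 5.90% ± 0.0259 of the TPM of nuclear protein-coding genes. Core genes had a median of 342 TPM in replicate 1 and 345 TPM in replicate 2, against 12.2 and 12.9 TPM for the 11935 expressed nuclear protein-coding genes. Among those expressed genes, 72 members lay in the top 5% (from 120 TPM), and 16 lay in the top 1% (from 450 TPM). At 100 TPM or more in both libraries stood 73 members, of which 71 were core genes.

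Within the core set, the levels ran from 29.0 to 1068 TPM in replicate 1 and from 31.7 to 1076 TPM in replicate 2. Rpl41, a short basic protein of the large subunit, led with 1068 and 1076 TPM. Rplp1, an acidic protein of the stalk that recruits translation factors, followed with 853 and 851 TPM, and Rps29, a zinc-binding protein of the small subunit, with 771 and 774 TPM. The values of the 2 hearts did not overlap between these 3 genes, nor between Rps29 and the genes ranked after it in the gene table. In a second set of deposited tables, made from the reads by another route and called here the second quantification, Rpl41 also led, but Rplp1 ranked 14 with 747 and 728 TPM and Rps29 ranked 23 with 610 and 752 TPM, below Rpl31, Rps24 and Rpl37a among others. Among the genes that followed were Rps27 (582 and 553 TPM), Rps14 (544 and 556 TPM), Rplp2 (508 and 557 TPM) and Rps24 (524 and 517 TPM). The range of each of these 4 overlapped that of the next in this order, so their order is not set by these data. Further down the spread was narrower: the core genes between the lower and upper quartile lay between 209 and 426 TPM in replicate 1 and between 232 and 421 TPM in replicate 2.

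The other stalk proteins and the members with known roles outside the ribosome lay mostly in this middle range. Rplp0, the base of the stalk, had 378 TPM in replicate 1 and 405 TPM in replicate 2, below Rplp1 and Rplp2 in both hearts. This order turned round in the second quantification, where Rplp0 had 796 and 850 TPM. There Rplp1 had 747 and 728 TPM and Rplp2 had 517 and 559 TPM. Rps6, the substrate of the S6 kinases, had 321 and 322 TPM, and Rpsa, also known as the laminin receptor, 371 and 371 TPM. Rps27a, made as a fusion with ubiquitin, had 332 and 336 TPM. Rps4x, encoded on the X chromosome, had 456 and 456 TPM. Rpl38, needed in mouse for patterning of the axial skeleton, had 409 and 416 TPM. Rps19, mutated in human Diamond-Blackfan anaemia, had 400 and 395 TPM.

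The lowest core genes were all of the large subunit except 1. Rpl5 and Rpl11 bind 5S rRNA as a pair and, when free, bind the p53 regulator Mdm2. Rpl5 had 29.0 TPM in replicate 1 and 34.4 TPM in replicate 2, while Rpl11 had 175 and 184 TPM. Rpl27 had 32.2 and 31.7 TPM, and its range fell inside that of Rpl5. Rpl12 (66.9 and 74.0 TPM) and Rpl27a (67.3 and 74.1 TPM) could not be ordered, and Rpl21 (82.7 and 86.0 TPM), Rpl36a (99.5 and 96.3 TPM), Rpl37 (121 and 123 TPM) and the small subunit gene Rps23 (133 and 129 TPM) came next. Rpl10, which joins the large subunit late, near its catalytic centre, had 132 and 135 TPM and overlapped Rps23. The 31 small subunit genes had a median of 380 TPM in replicate 1 and 375 TPM in replicate 2, against 321 and 317 TPM for the 46 large subunit genes, a log2 ratio of 0.24. In the second quantification this ratio was 0.08.

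**Figure D2:**
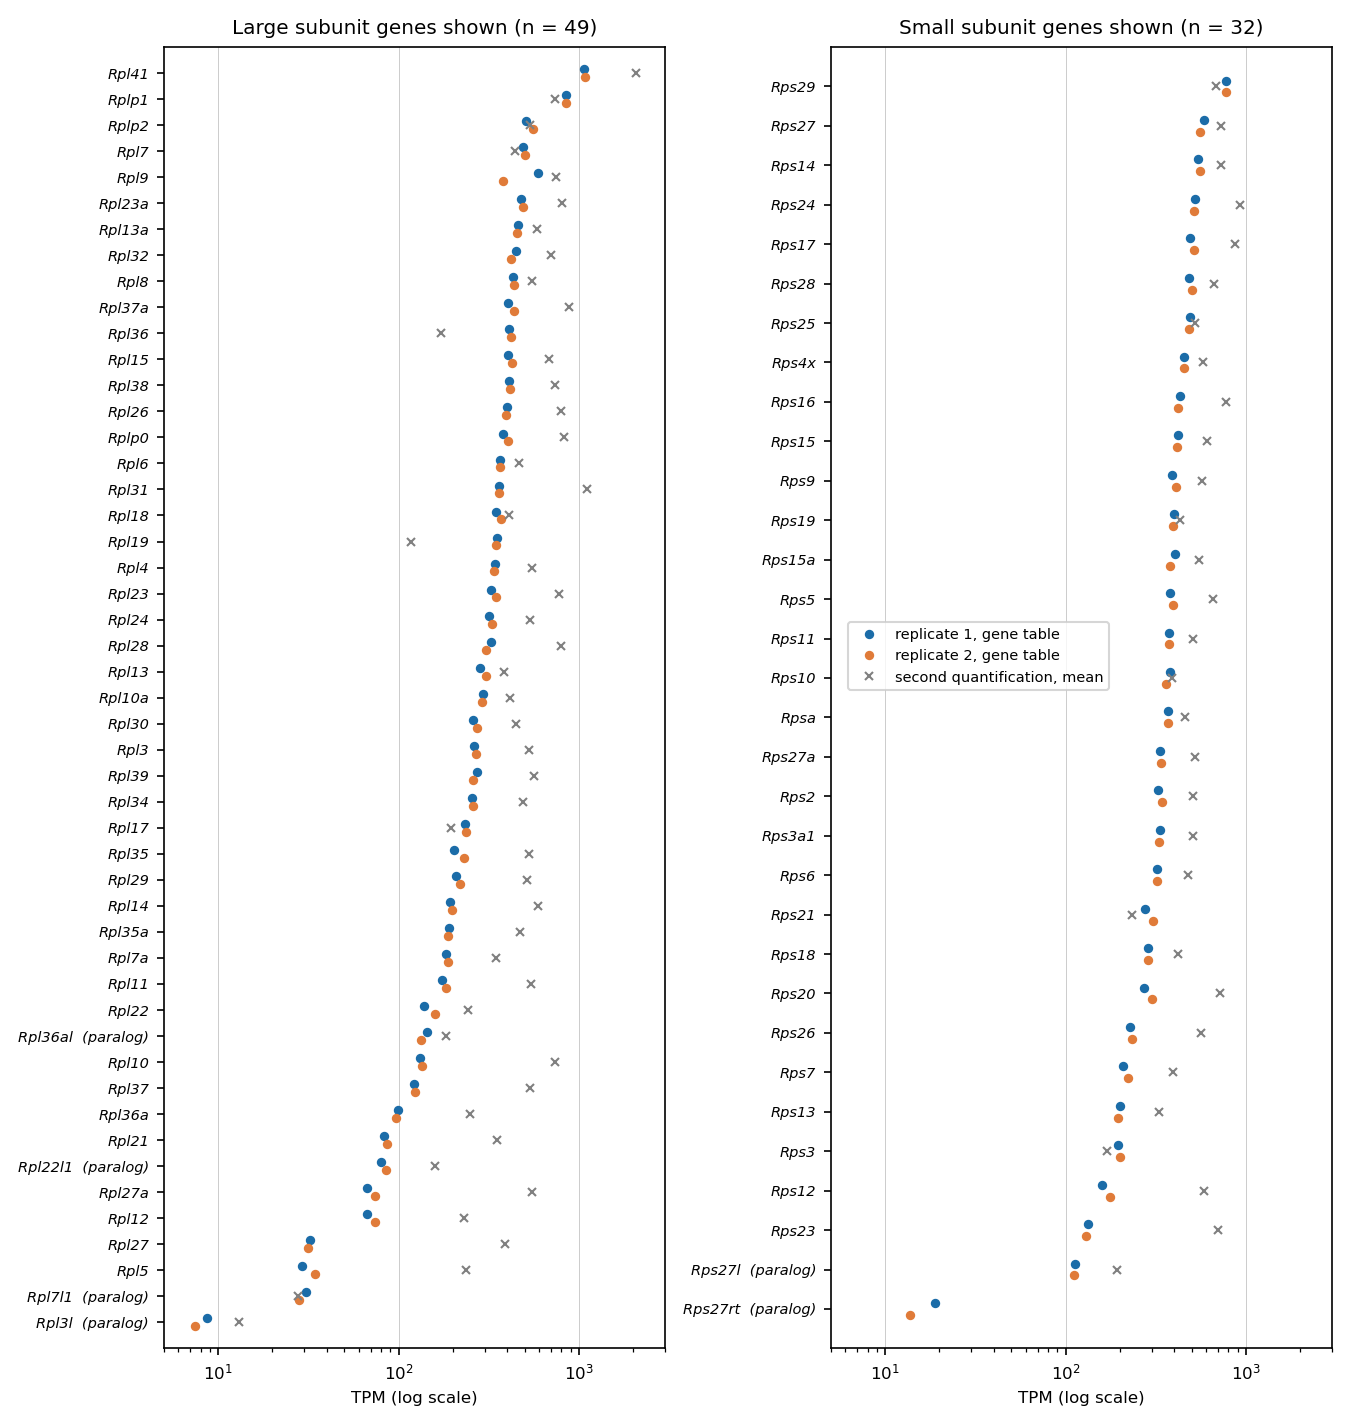
TPM (log axis) of 49 of the 50 large and 32 of the 33 small subunit genes with a level above 0, ordered by mean; the other 2 are not reported here. Blue and orange points are replicates 1 and 2 of the gene table and grey crosses are the mean of the second quantification, which lies to the right of the points for most genes, except for Rpl36, Rpl19, Rplp1, Rps29 and Rps21 and a few others.

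Proteins of the ribosome and factors that build it lay outside the symbol rule. Fau, the small subunit protein eS30 fused to a ubiquitin-like protein, had 355 TPM in replicate 1 and 389 TPM in replicate 2, and Rack1, a scaffold on the small subunit, had 284 and 296 TPM. All 25 listed assembly factors of the small subunit were expressed, with a sum of 373 ± 5.93 TPM (SD, n = 2), led by Nop58 and Emg1 at means of 41.8 and 32.4 TPM. All 32 genes listed for the large subunit were expressed and summed to 502 ± 8.78 TPM. In both lists, some genes encode proteins that modify rRNA of both subunits, so neither list is particular to its subunit. Among the 32, Eif6, which keeps the subunits apart until assembly ends, had 38.3 and 38.8 TPM. The 15 genes of RNA polymerase I, which makes rRNA, and its factors summed to 216 ± 11.5 TPM, led by Ubtf at 36.3 and 39.9 TPM. The 11 nucleolar genes summed to 372 ± 8.70 TPM, of which Npm1, a histone and ribosome chaperone, had 132 and 132 TPM. The 11 regulators of TOP mRNAs and of S6 phosphorylation summed to 449 ± 13.0 TPM, with Cnbp, which binds such mRNAs, at 140 and 146 TPM and the translation repressor Eif4ebp1 at 85.8 and 86.6 TPM. The median per gene of the 5 lists of assembly factors and regulators lay between 11.0 and 32.5 TPM in either library.

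The paralogs spread over a range from 0 to above 100 TPM. Rpl3l replaces Rpl3 in ribosomes of adult striated muscle in mouse. It had 8.66 TPM in replicate 1 and 7.46 TPM in replicate 2, against 262 and 268 TPM for Rpl3. That is a log2 ratio of -5.04 ± 0.18 (SD, n = 2), or 3.30% and 2.78% of the parent level, and both hearts showed the same order. In the second quantification the ratio was -5.35. The parent has a near-identical copy, Rpl3-ps1, with 5549 and 5042 expected counts in replicates 1 and 2. By expected counts with copies added, the ratio was -5.51 in replicate 1 and -5.67 in replicate 2. Rpl3l shares 73.3% of coding bases with Rpl3, its 288 and 222 counts had a posterior SD of 0, and no near-identical copy was found, so its count rests on reads of its own. The skeletal muscle markers were higher in replicate 1, as Rpl3l was, and their part in its level was not tested.

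Rpl22l1, whose mRNA is bound and lowered by Rpl22 in mouse, had 80.0 TPM in replicate 1 and 84.8 TPM in replicate 2, against 138 and 158 TPM for Rpl22. The log2 ratio was -0.84 ± 0.08, and the coding identity 67.5%. In the second quantification the ratio was -0.60. By expected counts with copies added it was -1.28 in replicate 1 and -1.44 in replicate 2, so whether it passes 2-fold depended on the setting. Rps27l, a target of p53 in human cells, had 112 and 111 TPM, against 582 and 553 TPM for Rps27, a log2 ratio of -2.34 ± 0.04. Rpl7l1 had 30.9 and 28.2 TPM, against 489 and 499 TPM for Rpl7, a log2 ratio of -4.07 ± 0.11 at a coding identity of 54.5%. On counts, which are not per length, the log2 ratio was -2.70 for Rpl7l1 over Rpl7 and -1.63 for Rps27l over Rps27. The paralog was lower than its parent in both hearts in each of these 3 pairs.

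Rpl36al and Rpl36a (coding identity 87.9%) encode nearly the same protein. Rpl36al had 143 TPM in replicate 1 and 134 TPM in replicate 2, against 99.5 and 96.3 TPM for Rpl36a, a log2 ratio of 0.50 ± 0.04. This order turned round in the second quantification, at -0.46, with 191 and 175 TPM for Rpl36al and 243 and 258 TPM for Rpl36a. It also turned round, to -0.31 and -0.40, when the expected counts of near-identical copies were added to each gene. Rps27rt, identical to Rps27 over its coding sequence, was listed at 18.9 and 13.7 TPM in the gene table, with a posterior SD of 21.3% and 30.2% of its count, and at 0 in the second quantification. Its level is therefore uncertain. Of the 6 pairs with a paralog above 0, 4 had the paralog at least 2-fold below the parent: Rpl3l, Rpl7l1, Rps27l and Rps27rt. In the second quantification the first 3 of these did, and Rps27rt had no ratio there.

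The germ cell paralogs were at the floor. Rpl10l and Rpl39l had 0 expected counts in both hearts, below the limit of 0.0829 CPM in replicate 1 and 0.0923 CPM in replicate 2, against 132 and 135 TPM for the parent Rpl10 and 271 and 258 TPM for Rpl39. The second quantification listed 1 count of Rpl10l in replicate 1 and 0 in replicate 2, and 0 of Rpl39l in both. Rpl10l shares 84.8% of its coding bases with Rpl10. Rps19bp1 had 12.1 TPM in replicate 1 and 11.9 TPM in replicate 2, against 400 and 395 TPM for Rps19, the protein it binds.

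**Figure D3:**
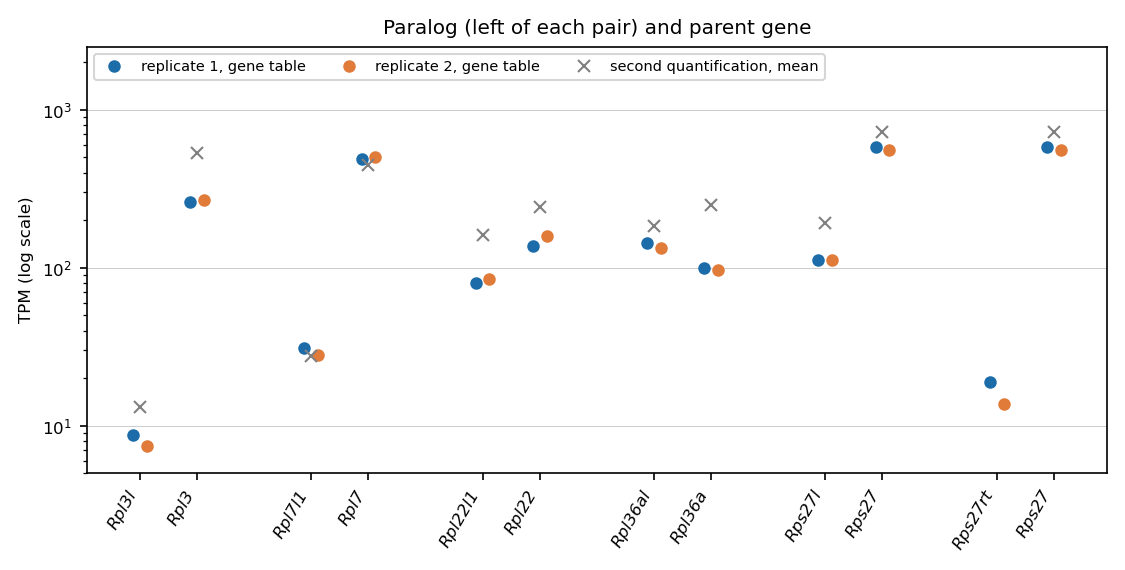
TPM (log axis) of each paralog, on the left of its pair, and of its parent gene. Points are replicates 1 and 2 of the gene table and crosses the mean of the second quantification; Rpl3l lies at 8.66 and 7.46 TPM against 262 and 268 TPM for Rpl3, and Rps27rt has no cross because the second quantification listed it at 0.

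Much of the low end of the core set moved when reads were shared out differently. Expected counts in the gene table were lower 2-fold or more than those in the second quantification, in both libraries, for 9 members (10.7% of 84), against 0.462% of 12115 tested protein-coding genes. Rpl27 had 515 counts in replicate 1 and 449 in replicate 2 in the gene table, against 3385 and 2998 in the second quantification. Rps23 had 1524 and 1289 counts, against 5898 and 5354. Rpl10 had 2590 and 2325 counts, against 8881 and 7663, and Rpl5 had 1242 and 1236, against 3723 and 3287. In each of these 4 genes the second quantification was higher by more than the difference between hearts.

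The other members of the 9 were Rpl27a, Rpl21, Rpl28, Rpl37 and Rpl36a. Intronless and other copies were then counted for each member, defined as annotated genes outside the set that match at least 80% of its coding sequence at 90% identity or more. In all, 79 members had at least 1 copy, with a median of 8 and a total of 995, of which 98.4% were typed as pseudogenes. Rpl21 had 76 copies. The copies held 120260 expected counts in replicate 1 and 106131 in replicate 2 in the gene table, against 51955 and 46907 in the second quantification.

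With the copies added, the gene table over the second quantification came to between 0.95 and 1.08 for all 9 genes and both libraries. For Rpl27, 12 copies held 2852 and 2512 counts in the gene table and 1.00 and 3.00 in the second quantification. Among them, Rpl27-ps3 and Gm11518, both processed pseudogenes identical to the coding sequence, held 1425 counts each in replicate 1 and 1254 each in replicate 2, and 0 in the second quantification. Rpl10-ps3, a copy identical to the coding sequence of Rpl10 and itself typed protein_coding, held 6080 and 5146 counts in the gene table and 0 in the second quantification. For Rps23, Rps23-ps1 held 4279 and 4020 counts, against 87.9 and 122. These sums show where the reads were placed and not which locus made them.

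For Rpl5, the copy was high in both sets of tables. Some copies of the other genes that were lower in the gene table also kept counts in both. Rpl37rt, a copy of Rpl37, held 2504 and 2221 counts in the gene table and 796 and 712 in the second quantification. Gm15500, a transcribed processed pseudogene identical to the coding sequence of Rpl5, held 8729 counts in replicate 1 and 7788 in replicate 2 in the gene table, and 6154 and 5730 in the second quantification. Rpl5 itself held fewer counts than this copy in both. Rpl31 differed less between the tables: it had 4155 and 3602 counts in the gene table, against 6513 and 5496 in the second quantification, and Rpl31-ps8 held 2186 and 1711 counts, against 0. The SD of log2 level over the 77 core genes was 0.92 by TPM, 0.66 in the second quantification and 0.63 for expected counts with copies added. The highest core gene exceeded the lowest 35.4-fold ± 1.98 by TPM, 17.7-fold ± 1.41 in the second quantification and 8.32-fold ± 0.302 by counts with copies (SD, n = 2), and counts, unlike TPM, are not per length. Core genes whose counts lay within 25% between the 2 sets numbered 48 alone and 62 with copies.

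In the other direction, 6 members (7.14%) had at least 2-fold more counts in the gene table than in the second quantification in both libraries, against 0.908% of tested protein-coding genes. They were Rps27rt, Rpl36, Rpl19, Rps29, Rps21 and Rplp1. Rpl36 had 3256 counts in replicate 1 and 2935 in replicate 2 in the gene table, against 392 and 412, and Rplp1 had 9576 and 8361, against 3255 and 2842. Rpl19 had 6428 and 5520 counts, against 1153 and 1164. Rps29 had 6297 and 5535 counts, against 1573 and 1731, and Rps21 had 2275 and 2221, against 607 and 558. With copies added, the ratio still lay between 1.65 and 6.36 for the 5 genes other than Rps27rt.

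Length correction differed too. Over transcripts longer than 600 nt, the median length minus effective length was 99.0 nt in the gene table's family in both libraries, and 344 nt in replicate 1 and 341 nt in replicate 2 in the second quantification. Over the 242 member transcripts of up to 600 nt it was 99.0 nt in the gene table's family in both libraries, and 326 and 324 nt in the second quantification. For Rpl41 the counts of the 2 sets were close, at 10301 and 9052 in the gene table against 10800 and 9603, while its TPM was 1068 and 1076 against 2078 and 2087. The members' share of all TPM was 2.69% in the gene table, and their share of expected counts was 1.12% ± 0.0162 (SD, n = 2). In the second quantification their share was 4.48% of the TPM of features with a gene identifier, a smaller whole than all TPM. Across the 77 core genes, Spearman's rho between the 2 sets was 0.54 for TPM and 0.70 for counts, and 0.85 for counts with copies added; the genes share their libraries and are not independent.

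**Figure D4:**
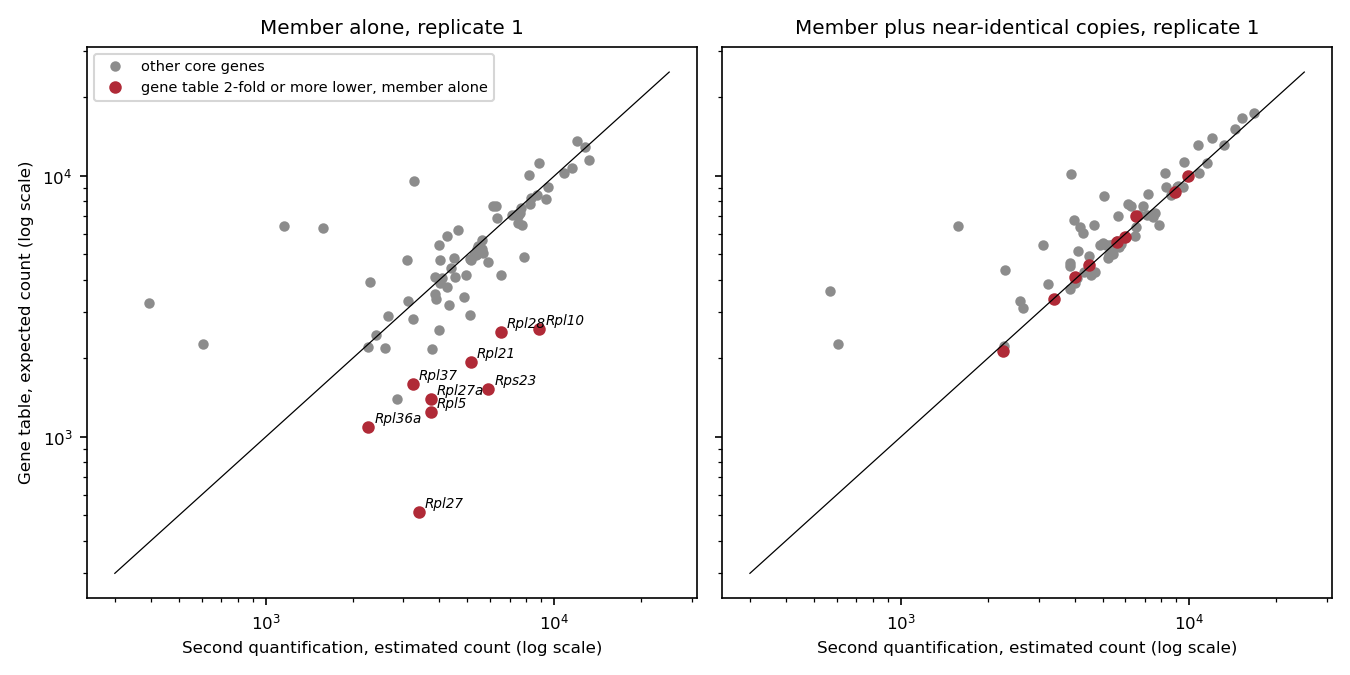
Expected counts of the 77 core genes in replicate 1 (log axes), gene table against second quantification, for each gene alone (left) and with its near-identical copies added (right); the line marks equal counts. The 9 genes in red lie 2-fold or more below the line on the left and between 0.95 and 1.08 of it on the right, while Rpl36, Rpl19, Rps29, Rps21 and Rplp1 stay above it.

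The annotated transcript types of the members were also assigned differently. In the second quantification, 30.0% of the members' TPM (29.8% in replicate 1 and 30.3% in replicate 2) came from transcripts not typed protein_coding, against 19.3% ± 0.796 for expressed nuclear protein-coding genes. Retained-intron transcripts made up 16.3% ± 0.0767 and processed transcripts 10.8% ± 0.463 of it. In the RSEM-layout transcript table, which belongs with the gene table, the share was 17.6%, against 15.8% ± 0.591 for expressed genes (SD, n = 2 throughout).

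For single genes the tables often disagreed. Rps27 had 0.73% and 0.86% of its TPM in transcripts not typed protein_coding in replicates 1 and 2 of the RSEM-layout table, and 99.8% and 99.7% in the second quantification. Rps27l had 8.99% and 12.1% in the RSEM-layout table, and 99.5% and 99.0% in the second quantification. The isoform makeup of these genes is not settled by these tables. For 9 members the share was over 50% in both: Rps16, Rpl23, Rps20, Rpl35, Rps23, Rpl37, Rpl22l1, Rpl27a and Rpl12. The same count was not made over all expressed genes, so whether 9 is many is not known. Rpl37 had 89.2% and 88.7% in the RSEM-layout table and 99.8% and 99.8% in the second quantification. Rpl23 had 71.7% and 72.2% in the RSEM-layout table, and 97.5% and 97.1% in the second quantification. Rps20 had 97.8% and 97.8% in the RSEM-layout table, and 99.6% and 99.7% in the second quantification. In this gene the transcript typed protein_coding is 3706 nt long, while the 2 that took most reads are typed retained_intron and are 582 and 512 nt long.

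Introns of these genes carry other RNAs. On the same strand, 30 of the 86 members (34.9%) contained an annotated snoRNA or scaRNA, the small RNAs that guide rRNA and snRNA modification, against 1.27% of 22015 nuclear protein-coding genes. Rpl4 held 5 and Rpl13a held 4. The members lay on 19 chromosomes, with 14 on chromosome 7, and core genes had a median coding length of 456 nt and 5 exons in the leading transcript.

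Between the hearts, no member of the 84 tested differed 2-fold, by counts scaled with edgeR's TMM factors. The share over all 13598 tested genes was 0.956%, and at that share few calls or none would be found among 84 genes. At a difference of 25% (the larger count over the smaller), 2 members (2.38%) differed, against 9.23% of all tested genes, and both were higher in replicate 1. With 1 library on each side these are ratios of 2 libraries with no test. The shares of 2.38% and 9.23% are not matched for counts, because tested genes reach down to a summed count of 20, below every tested member. Among the 739 protein-coding genes with a mean of 100 TPM or more, most log2 ratios lay between -0.21 and 0.25, within a 25% difference. Whether the members differed less than other genes of like level is therefore not shown. The SD of core TPM over the 2 hearts had a median of 1.79% of the mean, and other than Rpl9 none exceeded 11.9%, the value of Rpl5.

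Rpl9, a large subunit protein near the base of the stalk (chromosome 5, 65388364 to 65391444, minus strand), stood apart. It had 10733 expected counts in replicate 1 and 6019 in replicate 2, and 595 and 382 TPM. The levels of the hearts thus span the means of 27 other core genes. The scaled ratio was 1.65-fold, a log2 ratio of 0.73, with an exact 95% interval of 0.68 to 0.77 for counting error. In the second quantification it was 0.71, with 11475 and 6537 counts, and with its 14 near-identical copies added 0.73. The posterior SD of its count was 0.36% and 0.42%. Its leading transcript had 585 TPM in replicate 1 and 373 TPM in replicate 2 in the RSEM-layout table, and 823 and 535 TPM in the second quantification. A ratio at least as far from 0 was found for 127 of 12115 tested protein-coding genes (1.05%), and for 6 of the 739 (0.812%) with a mean of 100 TPM or more, Rpl9 included. The erythroid and skeletal muscle markers were higher in the same heart, those of macrophages and cycling cells were lower, and their part in this ratio was not tested.

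The other member past 25% was Rps27rt, with 146 counts in replicate 1 and 92.7 in replicate 2, a log2 ratio of 0.54 whose counting interval was 0.16 to 0.93. The posterior SD of those counts was 21.3% and 30.2%, so this ratio is uncertain. Next came Rpl3l (0.27), Rpl36al (0.17), Rpl32 (0.17) and Rpl3 (0.16). At the other end stood Rpl12 (-0.14), Rpl22 (-0.11), Rpl35 (-0.11), Rpl5 (-0.10) and Rps21 (-0.07). Signs at this lower end often depended on the tables. In the second quantification Rpl5 was at 0.08 and Rps21 at 0.02, while Rpl35 stayed below 0 at -0.02. With copies added Rpl12 was at 0.02, Rpl35 at 0.05 and Rpl5 at 0.03, while Rps21 stayed at -0.07. Rpl22 was at -0.12 in the second quantification and at -0.11 with copies.

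Taking all 84 members, 69 (82.1%) had a log2 ratio above 0, against 51.1% of all tested genes. The median was 0.06, against 0.00 for all tested genes. Erythroid and skeletal muscle markers were higher in replicate 1, macrophage and cycling cell markers were lower, and their part was not tested. Among the 739 protein-coding genes with a mean of 100 TPM or more, a set that holds most of the members, 71.6% were above 0 and the median was 0.04. The sign of the members' median depended on scaling: it was -0.07 with spike-in totals, where the median of all tested genes was -0.13, and -0.02 by TPM, where that of all genes was -0.08. Relative to the median of all tested genes the members' median was 0.06 in each of these. For spike-in totals this was fixed in advance, because another scaling shifts all log2 ratios by the same amount. Small subunit genes had a median of 0.08 with 27 of 31 above 0, and large subunit genes 0.05 with 36 of 46 above 0. In none of the 6 lists of ribosome-related genes outside the rule did a member reach a difference of 25%, against 9.23% of all tested genes. The tested genes reach down to a summed count of 20, below that of every listed gene, so these shares are not matched for counts.

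**Figure D5:**
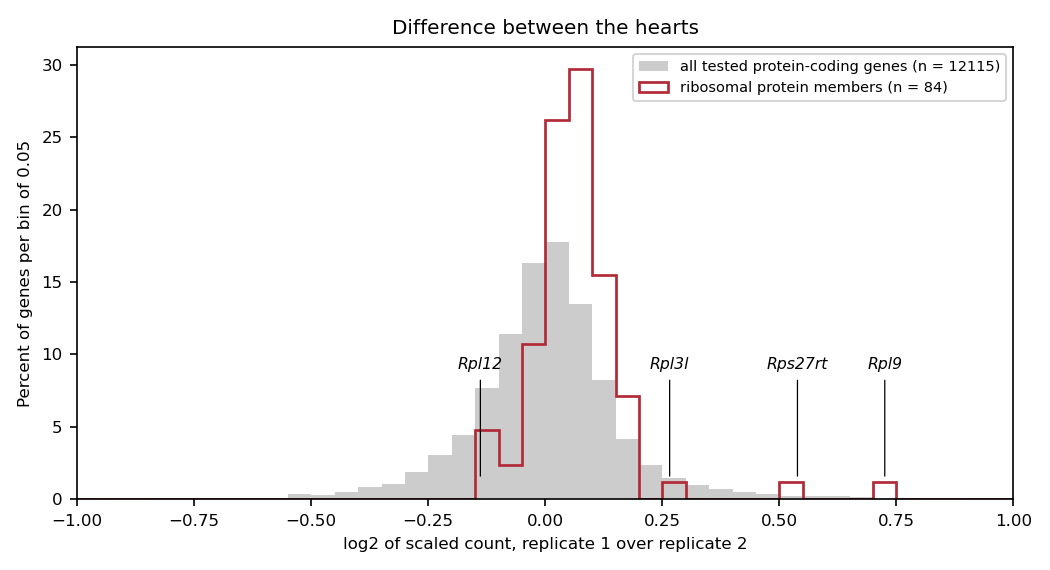
Distribution of log2 scaled-count ratios, replicate 1 over replicate 2, as percent of genes per bin of 0.05, for the 84 tested members (red outline) and 12115 tested protein-coding genes (grey; ratios beyond 1 on either side are not drawn). The members lie between -0.14 and 0.27 except Rps27rt at 0.54 and Rpl9 at 0.73.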

How the data were processed

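Total RNA (300 ng per library, with ERCC spike-ins) was measured in 2 hearts. The deposited gene tables give expected counts and TPM, with posterior SDs of counts, per the file headers; the authors quantified them from transcriptome alignments to mm10 with GENCODE M21, per the deposited notes. A deposited transcript table has the same layout (RSEM-layout), and a second one, quantified from reads, gives estimated counts and TPM; it was summed per gene as the second quantification. Which programs were run is not given in the sources used here. Members and gene lists were chosen with earlier results of these data known.

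Tested genes had a mean TPM of at least 1 and a summed count of at least 20. Ratios are replicate 1 over replicate 2 of expected counts scaled by TMM (edgeR 4.0.16, R 4.3.3) with 0.5 added; with 1 library on each side no test was possible, and p-values are not given. Copies were searched with BLAST 2.17.0 and had to hold the match over at least 50% of their transcript. The genes named were the paralogs and their parents, the 8 highest and 8 lowest core genes, 13 genes fixed by name, the 5 largest ratios and differences between quantifications in each direction, the 5 largest transcript-type shares and the leading genes of each list. Named outside this rule, after their values were seen, were Rpl28, Rpl31, the copies and single members given beside a count. Some members are not reported here by name. Alternatives were DESeq2 1.42.0 size factors, library totals, spike-in totals, TPM ratios, posterior means, filters and the second quantification.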

Additional observations from a re-analysis of the deposited data

How the results depend on the processing

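No paired analysis was possible because both libraries belong to 1 group. The number of members expressed was 84 in the gene table and 83 in the second quantification, which listed Rps27rt at 0 and so gave no ratio for it. The members' share of TPM was 4.48% in the second quantification, over features with a gene identifier, and 2.63% by posterior means. It was 5.90% of nuclear protein-coding TPM, 2.65% for core genes and 1.12% of counts. Leaving out a heart gave 2.68% to 2.70% in the gene table. The small over large subunit log2 ratio was 0.0826 in the second quantification and 0.0591 by CPM (0.24 to 0.24 leaving out a heart). The SD of core log2 levels was 0.66 in the second quantification, 0.90 by CPM and 0.63 with copies added, an alternative chosen after seeing the data (0.91 to 0.94 leaving out a heart). Paralogs at least 2-fold below the parent numbered 3 to 5 across the settings and 4 to 4 leaving out a heart; Rpl36al over Rpl36a reversed to -0.46 in the second quantification. The members' median log2 ratio between hearts was 0.0194 by library totals, -0.0699 by spike-in totals and -0.0196 by TPM, and at a difference of 25% 2 members were counted. The ratio of Rpl9, with settings added after seeing the data, ran from 0.59 to 0.73. The share of TPM from transcripts not typed protein_coding was 17.6% in the RSEM-layout table and 24.4% of counts (29.8% to 30.3% leaving out a heart). The cause of these differences was not tested. With 2 libraries, no spread between animals beyond this pair could be estimated.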
